A study of Mus musculus with 8 samples.

Results

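Transcripts of 8 genes at the transcriptional end of canonical Wnt signalling were followed in the forelimb mesenchyme of mouse embryos. The 8 genes comprised the 4 HMG-box factors *Lef1*, *Tcf7*, *Tcf7l1* and *Tcf7l2*, and the 4 feedback and target genes *Axin2*, *Nkd1*, *Nkd2* and *Sp5*. They were chosen by symbol from 28001 features, and all 8 were present in each of the 8 single-cell libraries. Levels are given as CPM, the UMIs of a gene as a share of the UMIs of all genes, scaled to a common total, and summed over the cells of a library or cluster. A UMI (unique molecular identifier) marks 1 captured transcript.

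The 6 sorted libraries held tdTomato+ cells of C57BL/6J forelimbs taken between embryonic day (E) 11.5 and E16.5, with the last stage split into a proximal segment around the elbow and a distal segment of lower forearm and paw. Both *Hic1* alleles carried CreERT2 (Hic1CreERT2/CreERT2) and both Rosa26 alleles the reporter (Rosa26LSLtdTomato/tdTomato), and dams had received 7.5 mg tamoxifen by gavage at embryonic day 10, so that tdTomato marked cells, and their descendants, that expressed *Hic1* at about that time. Limbs of several embryos were pooled into each library, the sort removed cells that bore blood or endothelial antigens, and there was 1 library per sorted group. The remaining 2 libraries, whole 1 and whole 2, held Hic1;tdTomato+ and Hic1;tdTomato- cells together, those without blood or endothelial lineage antigens, from E11.5 forelimbs of the same strain, alleles and tamoxifen dose.

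In canonical Wnt signalling, a ligand bound to Frizzled and LRP receptors stops the destruction of β-catenin, which enters the nucleus and joins HMG-box factors of the TCF/LEF family on DNA. Without β-catenin these factors recruit Groucho-type co-repressors, and LEF1 and TCF7 are generally described as activators, TCF7L1 as a repressor and TCF7L2 as context-dependent. *Axin2*, *Nkd1*, *Nkd2* and *Sp5* are genes that the pathway itself induces, and in the limb and skin the pathway is known for its part in outgrowth, in keeping mesenchyme out of the cartilage fate and in forming the dermis and hair follicles.

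The TCF/LEF family recognises a CTTTGA core, and windows of 250 bases before RefSeq starts of the 8 genes were searched for this core on both strands. Some windows lay inside a gene, among them the only window of *Nkd1* (chr8:88527383-88527632). The bases before the *Nkd1* start given below were therefore not searched. Of 13 such RefSeq entries on GRCm38.p6 for the 8 genes, 2 held CTTTGA or its reverse complement TCAAAG, against 13.8% of all 32851 entries. One lay before *Sp5*, a gene of chromosome 2 (start 70474923, end 70477729, + strand), and the other before a start inside the body of *Lef1* on chromosome 3 (start 131110471, end 131224356, + strand). Both windows are shown because they were the only ones of the 8 genes with a match, before a target and a factor that are both described below, and capitals mark the matches.
Sp5, chr2:70474673-70474922, + strand: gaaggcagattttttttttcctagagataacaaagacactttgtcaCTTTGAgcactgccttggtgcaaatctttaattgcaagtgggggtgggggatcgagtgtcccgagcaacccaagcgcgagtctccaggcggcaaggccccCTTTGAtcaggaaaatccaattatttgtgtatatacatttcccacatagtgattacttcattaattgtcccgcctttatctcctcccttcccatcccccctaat
Lef1, internal start, chr3:131156044-131156293, + strand: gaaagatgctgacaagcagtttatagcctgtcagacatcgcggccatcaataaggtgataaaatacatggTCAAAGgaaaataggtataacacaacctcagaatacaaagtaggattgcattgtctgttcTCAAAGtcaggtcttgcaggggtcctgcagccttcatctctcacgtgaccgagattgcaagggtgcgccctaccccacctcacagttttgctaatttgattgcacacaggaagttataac
In *Sp5* the matches began 204 and 104 bases before the start, and the nearer one read CTTTGAT, a longer form present in 3.21% of all entries. In *Lef1* both matches lay on the reverse strand, 180 and 120 bases before the internal start. A match of these letters is not a measured binding site. The other genes lie, on the same build, with *Tcf7* on chromosome 11 (52252371 to 52283014, - strand), *Tcf7l1* on chromosome 6 (72626378 to 72789254, - strand), *Tcf7l2* on chromosome 19 (55741820 to 55933654, + strand), *Axin2* on chromosome 11 (108920349 to 108950783, + strand), *Nkd1* on chromosome 8 (88521354 to 88594884, + strand) and *Nkd2* on chromosome 13 (73818534 to 73847631, - strand). The libraries count the 3′ ends of transcripts, so *Lef1* transcripts from this start and from the upstream ones were not separated.

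Cells with at least 3000 UMIs and at most 10% mitochondrial UMIs were kept, 53085 of 57469 barcodes, with between 3165 and 11109 cells and between 31500092 and 234893903 UMIs per library. The labels were checked on *Hic1* and tdTomato: *Hic1* stood at 22 to 38.0 CPM in the sorted libraries and 0.702 and 0.741 CPM in the whole limb libraries, and tdTomato at 427 to 1341 and at 3.88 and 4.21 CPM. No pair of libraries shared more than 1.04% of the barcodes of the smaller one. Median depth was 6788 to 18473 UMIs per cell. The study's methods give reagent kit v2 for the first 3 stages and v3 for the later ones, so between these sets of stages stage and kit cannot be told apart. They also give Dispase for freeing the cells at E11.5 and E12.5, and collagenase, pronase and DNase from E13.5 on. Between E12.5 and E13.5, stage and digestion can therefore not be told apart either.

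The first comparison asked how the sorted *Hic1* lineage differed at E11.5 from the mesenchyme of the whole limb bud. Cells of muscle, epithelial, apical ridge, endothelial, blood and glial clusters were left out, and UMIs were summed per library. Sorted cells had more *Tcf7l2*, a factor known as a marker of connective tissue fibroblasts around limb muscle, and less *Lef1*, *Tcf7*, *Axin2*, *Nkd1* and *Nkd2*. Of the 8 genes, 7 passed the edgeR quasi-likelihood test, 1 higher and 6 lower in sorted cells, where 53.3% of 15073 genes tested passed (26.8% higher and 26.5% lower). Because so many genes differed between these cells, the direction and size carry more than the number of calls. The sorted group was 1 library and the fit had 1 residual degree of freedom, so p-values measure only the spread between whole 1 and whole 2, which nothing states to be separate cultures or litters. The sorted library was taken to vary like them, and its own spread is not known.

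Among the factors, *Lef1* stood at 28.1 CPM in sorted cells against 93.9 and 93.1 CPM in whole 1 and whole 2, a log2 fold change of -1.91 ± 0.11 (SE, edgeR adjusted p = 4.95e-67). *Tcf7*, the factor first described in T cells, stood at 5.62 CPM against 19.2 and 18.0 CPM (log2 fold change -1.90 ± 0.16, adjusted p = 3.6e-30). Both activating members thus lay below both whole limb libraries, which differed from each other by 2-fold in 0.106% of 9458 genes. *Tcf7l2* ran the other way, at 691 CPM in sorted cells against 181 and 207 CPM (log2 fold change 1.65 ± 0.10, adjusted p = 3.44e-54). *Tcf7l1*, with 76.9 CPM against 60.5 and 64.6 CPM, did not pass the test (log2 fold change 0.12 ± 0.10, adjusted p = 0.323).

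Among the feedback genes, *Axin2*, a scaffold of the β-catenin destruction complex and a common readout of pathway activity, stood at 12.1 CPM in sorted cells against 46.0 and 42.4 CPM (log2 fold change -2.05 ± 0.14, adjusted p = 1.23e-48). *Nkd1*, which binds Dishevelled and dampens the signal, stood at 38.3 CPM against 108 and 110 CPM (log2 fold change -1.69 ± 0.10, adjusted p = 2.84e-56). Its relative *Nkd2* differed less, at 44.5 CPM against 67.1 and 56.3 CPM (log2 fold change -0.65 ± 0.11, adjusted p = 8.74e-09). *Sp5*, a zinc-finger repressor of Wnt targets, was hardly detected in these cells, with 1, 21 and 3 UMIs in sorted cells, whole 1 and whole 2. It passed the edgeR test (log2 fold change -3.05 ± 1.10, adjusted p = 0.0130) on the 21 UMIs of whole 1. As plain log2 ratios of CPM, without TMM scaling, *Sp5* was at -0.99 without whole 1 and at -3.81 without whole 2. The plain log2 ratio of *Nkd2* was -0.34 without whole 1, which is not on the scale of its edgeR value. Without the filter on low counts *Sp5* had an edgeR adjusted p of 0.325, and DESeq2 gave an unadjusted p of 0.139 with no adjusted value (log2 fold change -3.20 ± 2.16). In edgeR its log2 fold change was -3.07 with RLE scaling and -3.03 without doublets. It was -4.12 with all filtered cells, a fit that adds the myogenic-like cells described below and so does not concern the mesenchyme alone.

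*Nkd2* also varied along the limb within the whole limb libraries, though by less than 2-fold, which 8.88% and 8.13% of genes passed there. It stood at 80.1 CPM in distal limb mesenchyme-like cells and 40.4 CPM in proximal ones of whole 1, and at 66.2 and 38.1 CPM in whole 2. Against the proximal limb mesenchyme-like cells alone (868 and 987 cells), *Nkd2* no longer differed past the threshold (log2 fold change 0.07, edgeR adjusted p = 0.699, with adjusted p at or below 0.0357 under each other alternative). Of the other genes, 4 were lower in this comparison as well, at -1.97 for *Lef1*, -1.58 for *Tcf7*, -1.97 for *Axin2* and -1.98 for *Nkd1* on the log2 scale, and *Tcf7l2* was higher by 1.68, while *Sp5* had too few UMIs to be tested. Here 47.9% of 12554 genes tested passed (24.9% higher and 22.9% lower). *Tcf7l1* passed in this comparison only among those run (log2 fold change 0.31, edgeR adjusted p = 0.0135, against 0.191 to 0.670 under the other alternatives).

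Cluster by cluster, *Lef1* and *Tcf7l2* were separated as well, and the other genes overlapped. In the 3 sorted clusters *Lef1* ranged from 16.4 to 42.5 CPM, and in the 13 mesenchymal clusters of the whole limbs from 43.8 to 120 CPM in whole 1 and from 47.9 to 125 CPM in whole 2, so the ranges did not overlap. *Tcf7l2* ranged from 559 to 786 CPM in sorted clusters and from 81.0 to 411 CPM over both whole limb libraries, again without overlap. *Axin2* overlapped, with 4.79 to 14.2 CPM in sorted clusters and 8.69 to 71.0 CPM in whole limb clusters, of which the chondrocyte-like cluster was lowest in both libraries. *Tcf7* (3.57 to 6.46 CPM in sorted clusters, from 5.35 CPM in whole limb clusters), *Nkd1* (23.8 to 56.7 CPM, and from 45.4 CPM) and *Nkd2* (24.3 to 61.8 CPM, inside 15.9 to 113 CPM) overlapped too. The lowest *Lef1* of the whole limbs was in that chondrocyte-like cluster too. Sorted and whole limb cells fell into separate clusters, so a cluster here is also a library, and the sort cannot be told apart from library handling. Globin transcripts, the markers of red blood cells, moved with the groups as well, at 0.160 CPM summed over 8 genes in sorted cells (5 of them at 0) against 356 and 292 CPM in whole 1 and whole 2 (1 at 0 in each). The 8 mitotic markers summed to 1629 CPM against 2200 and 2155 CPM, none at 0. Higher in sorted cells were the summed epithelial (24.4 against 9.17 and 8.78 CPM, 3 of 7 at 0), apical ridge (20.4 against 5.43 and 5.13 CPM, 0 of 5 at 0) and glial markers (13.6 against 6.65 and 5.62 CPM, 1 of 7 at 0). Among these apical ridge markers *Sp8* went the other way (log2 fold change -3.79). Lower in sorted cells were the summed myogenic markers (2.94 against 7.25 and 7.17 CPM, 3 of 8 at 0). Muscle fibre markers were lower too (3.19 against 6.46 and 6.74 CPM). The part of all these markers in the differences was not tested. In such sums, fewer cells of a type and less RNA per cell cannot be told apart.

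**Figure D1:**
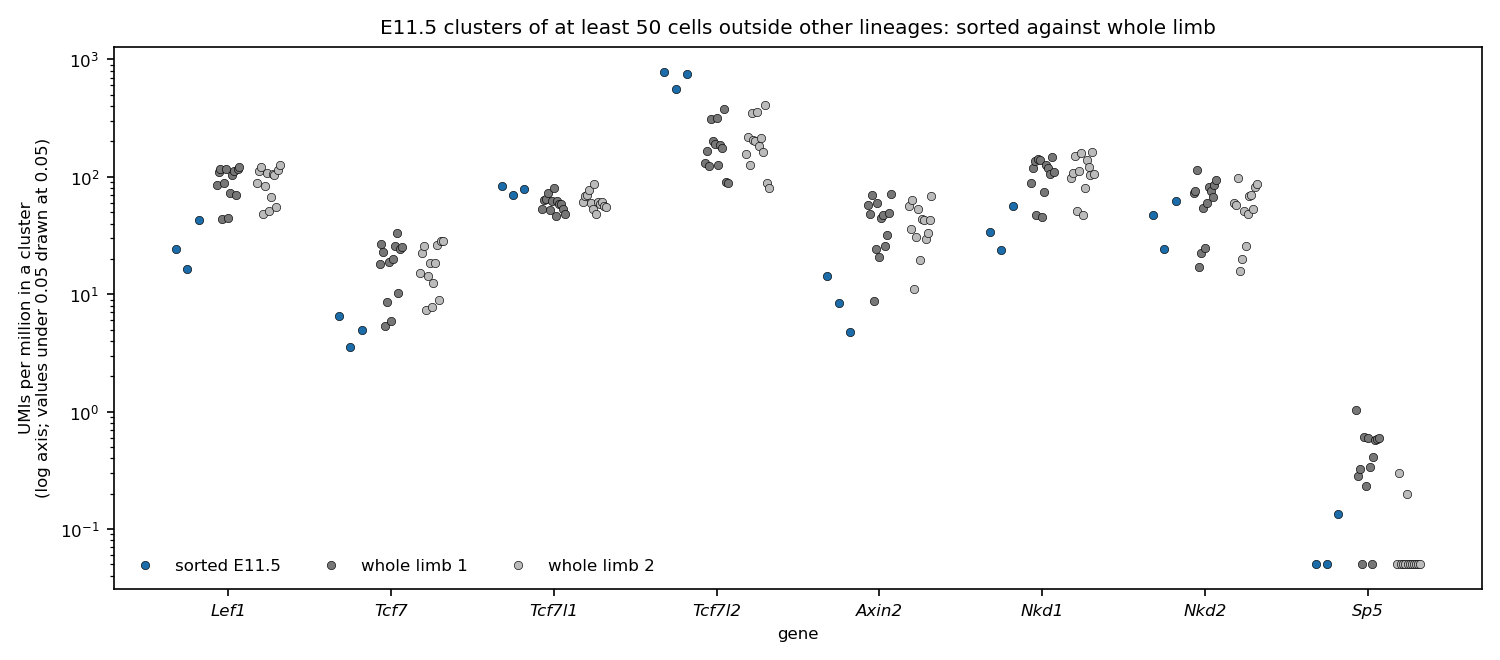
CPM of each of the 8 genes (log axis) in each cluster of at least 50 cells outside other lineages at E11.5, for the sorted library and both whole limb libraries; each point is 1 cluster and values under 0.05 are drawn at 0.05. The *Lef1* points of sorted cells (16.4 to 42.5 CPM) all lie below those of whole limbs, and the *Tcf7l2* points (559 to 786 CPM) all lie above.

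Of 47 other Wnt pathway genes, 45 could be tested at E11.5, of which 10 were higher and 14 lower in sorted cells, a share near the 53.3% of all genes. Among the other feedback and target genes 6 of 9 were lower and 2 higher. The largest decreases were of *Sp8*, a zinc-finger factor of limb outgrowth (1 UMI in sorted cells, 21 and 19 in whole limbs, log2 fold change -3.79), the secreted inhibitor *Dkk1* (3.0 CPM against 35.2 and 26.1 CPM, -3.53) and the receptor *Fzd10* (3.0 CPM against 23.8 and 20.3 CPM, -3.06). The largest increases were of the receptors *Fzd8* (14.2 CPM against 4.38 and 4.64 CPM, 1.48) and *Fzd6* (1.98 CPM against 0.834 and 0.572 CPM, 1.31) and of the co-repressor *Tle2* (9.36 CPM against 3.57 and 3.37 CPM, 1.25). Against proximal cells alone *Fzd10* was lower by less (log2 fold change -1.27), as was *Dkk1* (-2.87), *Fzd8* was higher by 0.77 and *Sp8* had too few UMIs to be tested. In that comparison *Tle2* turned to -0.03 (edgeR adjusted p = 0.922) and *Fzd6* did not pass (log2 fold change 0.78, edgeR adjusted p = 0.143).

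The second comparison followed the sorted lineage from E11.5 to E16.5 in the proximal segment, with 1 library per stage and therefore no test. Earlier libraries held cells of entire forelimbs, the last only those of the segment around the elbow. Stage and limb part can therefore not be told apart at E16.5, and the end values hold for that segment only. In the E16.5 distal library *Axin2* stood at 31.6, *Lef1* at 14.9, *Tcf7* at 9.98 and *Tcf7l2* at 145 CPM. Ratios carry exact 95% counting intervals, which cover sampling of molecules only. A gene was counted when its higher library reached 5 CPM and the ratio was at least 2. Markers of other cells changed along the course as well. Between E11.5 and E16.5 proximal, globins went from 0.159 CPM (5 of 8 at 0) to 109 CPM (2 at 0), muscle fibre markers from 3.33 to 71.5, glial markers from 13.7 to 47.6, myogenic markers from 5.56 to 38.2, epithelial markers from 24.3 (3 of 7 at 0) to 43.1 (0 at 0), apical ridge markers from 20.98 to 3.29 (1 of 5 at 0) and mitotic markers from 1629 to 802 CPM, and their part was not tested. By the rule of 2-fold, 4 of the 8 genes differed between the ends of the course, 3 lower and *Sp5* higher at E16.5, where 43.4% of 10732 genes did (29.6% lower and 13.7% higher). The share among the 8 genes was thus near that of all genes. The median gene itself was at -0.48 on the log2 scale at E16.5, and with TMM scaling at -0.04. With that scaling 54.8% of the genes past 2-fold were higher at E16.5, against 31.6% with UMI totals, and the 4 calls among the 8 genes had the same directions.

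*Tcf7l2* declined at each stage, from 688 CPM at E11.5 through 493, 352 and 212 CPM to 173 CPM in the E16.5 proximal library, 3.98-fold in all (95% interval 3.91 to 4.05). No neighbouring intervals overlapped. In cells thinned to 3000 UMIs each, the share with a *Tcf7l2* UMI was 78.2% at E11.5 and 35.4% at E16.5 proximal. *Lef1* went from 28.3 CPM at E11.5 to 14.8, 10.2, 12.5 and 8.82 CPM, 3.21-fold lower at the end (2.95 to 3.48), with a higher value at E14.5 than at E13.5. *Tcf7* showed no such course and stayed between 3.37 and 5.59 CPM over the 5 libraries, and the sign of its log2 ratio between the ends turned with the scaling, from -0.17 to 0.24 with TMM factors. *Tcf7l1* was 76.6 CPM at E11.5 and between 48.5 and 52.0 CPM in the 4 later libraries, whose intervals overlapped from one to the next, a log2 ratio of -0.61 at the end beside -0.48 for the median gene, and -0.20 with TMM factors.

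The 4 feedback and target genes followed different courses. *Nkd2* was 44.6 CPM at E11.5 and then 20.1, 18.6, 17.6 and 13.1 CPM, and most of its 3.40-fold difference (3.18 to 3.63) lay between E11.5 and E12.5, where it was 2.22-fold lower and 4.32% of 10259 genes passed 2-fold. *Axin2* stood at 12.1, 11.5, 17.7, 30.0 and 12.5 CPM, so that the ends were alike (ratio 1.03, 0.924 to 1.15) and the highest level of this course was at E14.5, from which it was 2.40-fold lower in the proximal segment at E16.5. The step from E12.5 to E13.5 was 1.54-fold for *Axin2*, and no member at 5 CPM passed 2-fold there, against 4.08% of 10366 genes. *Nkd1* stood at 38.2, 29.7, 31.8, 40.2 and 30.8 CPM, with overlapping intervals at E11.5 (36.1 to 40.4) and E14.5 (39.1 to 41.3), and its log2 ratio between the ends was -0.31, or 0.10 with TMM factors.

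*Sp5* was near the limit of detection in the early libraries. It had 3 UMIs at E11.5 (0.0952 CPM) and 3 at E12.5 (0.0678 CPM), 2.45 CPM at E13.5, 14.8 CPM at E14.5 and 6.97 CPM in the E16.5 proximal library. The step from E13.5 to E14.5 was 6.06-fold (5.01 to 7.41), where 11.6% of 10515 genes passed 2-fold in either direction. The ratio of the last to the first stage was 73.2 and rested on the 3 UMIs of E11.5 (25 to 356). Only epithelial-like clusters were left out here, and at E11.5 all 3165 cells were kept. The first comparison left out clusters of other lineages and so held fewer *Sp5* UMIs. The following step to E16.5 proximal was 2.13-fold lower, where 12.6% of 10298 genes passed 2-fold.

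**Figure D2:**
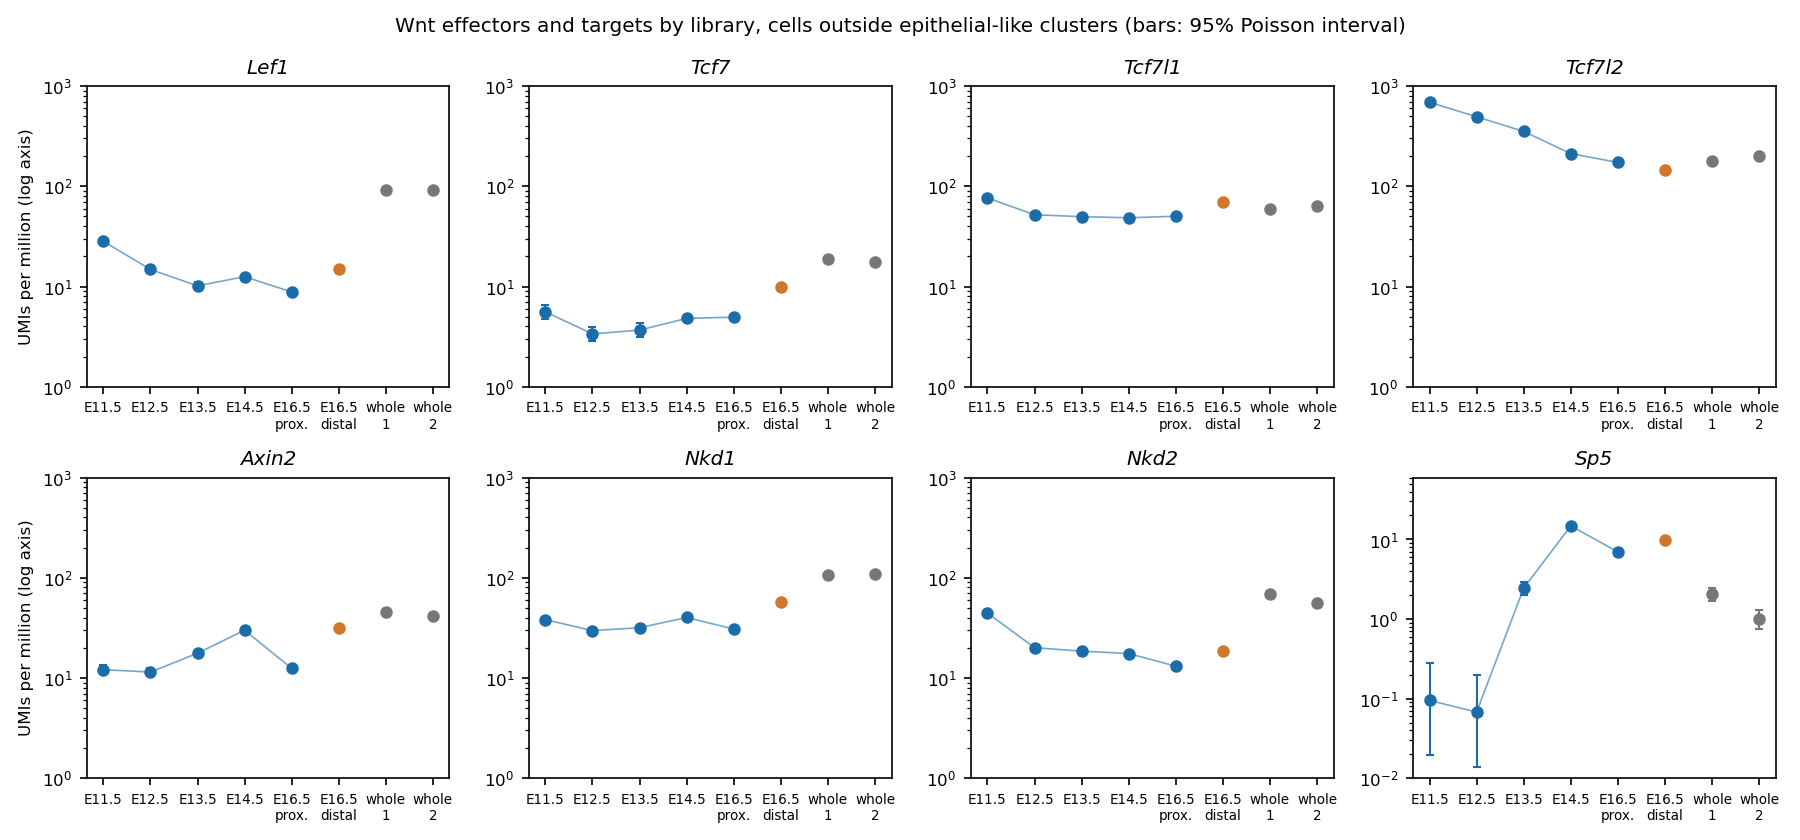
CPM (log axis) of the 8 genes in each of the 8 libraries, in cells outside epithelial-like clusters; bars are exact 95% Poisson intervals, the line joins the 5 stages up to E16.5 proximal, and the axis for *Sp5* is lower than that of the others. *Tcf7l2* declines from 688 to 173 CPM, along the line *Axin2* is highest at E14.5 (30.0 CPM, against 31.6 CPM in E16.5 distal and 45.6 and 41.6 CPM in the whole limbs) and *Sp5* rises from 0.0678 to 14.8 CPM between E12.5 and E14.5.

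Of the other pathway genes 39 of 47 reached 5 CPM in this comparison, with 5 higher and 14 lower at E16.5, a share near the 43.4% of all genes (13.7% higher and 29.6% lower). The largest ratios were lower for the co-repressor *Ctbp2* (4.89-fold, 144 to 29.4 CPM), the receptor *Fzd1* (3.65-fold, 50.1 to 13.7 CPM) and *Pygo2*, a nuclear partner of β-catenin (3.54-fold, 37.6 to 10.6 CPM). They were higher for the receptors *Fzd9* (18.0-fold, 1.30 to 23.4 CPM), *Fzd5* (4.81-fold, 1.43 to 6.88 CPM) and *Fzd8* (2.56-fold, 14.2 to 36.3 CPM).

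The third comparison set the distal against the proximal segment at E16.5. *Axin2* was 31.6 CPM in the distal and 12.5 CPM in the proximal library, 2.53-fold higher distally (2.41 to 2.66), and *Tcf7* 9.98 against 4.95 CPM, 2.02-fold (1.86 to 2.19). These 2 genes passed 2-fold, where 7.06% of 10149 genes did (4.49% higher distally and 2.57% higher proximally). The intervals of 5 further genes lay above 1: *Nkd1* was 58.0 against 30.8 CPM, *Lef1* 14.9 against 8.82, *Nkd2* 18.5 against 13.1, *Sp5* 9.73 against 6.97 and *Tcf7l1* 69.2 against 50.2 CPM, with ratios from 1.38 to 1.88. *Tcf7l2* was lower distally, at 145 against 173 CPM (ratio 0.840). The ratio of *Tcf7* lay at the limit and fell below 2 with TMM scaling (log2 0.86), with cells thinned (0.92) and without doublets (0.99). With TMM scaling 46.0% of the genes past 2-fold were higher distally, against 63.6% with UMI totals.

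The segments also differed in their cells. The 4 clusters chosen for the most *Axin2* held 25.3% of distal and 14% of proximal cells. As a description, they held 94.8% and 94.7% of the *Sp5* UMIs, 90.4% and 83.1% of the *Tcf7* UMIs, but 13.9% and 6.13% of the *Tcf7l2* UMIs. As an equal-weight mean over the 6 cell classes found in both segments, *Axin2* differed by 0.74 on the log2 scale instead of 1.34. The fibroblast-like cells lay mostly in different clusters, 600 of 618 proximal cells in one and 517 of 584 distal cells in the other, and the joint-like cells parted at a finer resolution of 2, with 173 of 192 proximal cells in an unnamed cluster led by *Nell2* and *Igfbp2* and 159 of 162 distal cells in a joint-like one. Without both classes, an alternative chosen after seeing the data, the mean for *Axin2* was 1.05. No such mean was read for *Sp5*, which had 0 distal and 2 proximal UMIs in joint-like and in pericyte-like cells and at most 21 distal UMIs in any class other than dermal fibroblast-like cells, where it was 57.4 against 48.5 CPM. These classes held only 1865 of 8379 distal and 3605 of 10168 proximal cells, and left out unnamed clusters with 19.1%, 24.7% and 14.1% of the distal *Axin2* UMIs. Within classes *Axin2* was 71.1 against 45.5 CPM in dermal fibroblast-like cells (ratio 1.56, 1.35 to 1.80), where none of the 8 genes passed 2-fold and 7.03% of all genes did. It was 12.3 against 5.30 CPM in tenocyte-like cells (2.33, 1.70 to 3.22), where 5.20% of 9687 genes passed, and 16.1 against 5.34 CPM in mitotic-like cells (3.02, 2.38 to 3.83), where 7.34% of 10117 genes passed. In fibroblast-like cells, where the segments hold different clusters, it was 12.04 against 8.22 CPM (1.46, 1.15 to 1.87). The intervals included 1 in joint-like cells, which parted in the same way (11.3 against 14.1 CPM, 0.802, 0.469 to 1.35) and pericyte-like cells (12.97 against 7.78 CPM, 1.67, 0.909 to 3.02). In fibroblast-like and joint-like cells 4 and 5 of the 8 genes reached 5 CPM and none of these passed, against 14.4% and 19.2% of all genes at that level, and in pericyte-like cells *Tcf7* was lower distally on 5 against 28 UMIs, where 12.5% passed. Markers of other cells differed between the segments too. Muscle fibre markers summed to 13.8 CPM in the distal against 71.5 CPM in the proximal library, myogenic markers to 15.6 against 38.2, glial markers to 17.0 against 47.6, epithelial markers to 23.9 against 43.1 and globins to 75.5 against 109 CPM, and their part was not tested. The distal library was counted with a later Cell Ranger version, which cannot be told apart from the segment.

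Of the other pathway genes 3 of 39 at 5 CPM or more passed 2-fold, a share near the 7.06% of all genes. *Tnfrsf19*, a receptor of the TNF family and a Wnt target (13.4 against 5.27 CPM, 2.54-fold), and *Fzd7* (23.1 against 10.6 CPM, 2.17-fold) were higher distally, and *Fzd9* was lower (11.4 against 23.4 CPM, 2.05-fold).

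At E14.5 and E16.5 most of the 8 genes separated the dermal fibroblast-like cells from the other mesenchyme, with *Tcf7l1* short of 2-fold in each library and *Tcf7l2* in the E16.5 distal one. These clusters were named from *Col7a1*, *Irx1*, *En1*, *Lrig1*, *Twist2* and *Crabp1*, of the 7 dermal markers all but *Trps1*. At E14.5 *Trps1* was lower in them, at 19.1 CPM against 123 CPM in the other cells. The 8 genes and the other pathway genes were left out of clustering and naming, but the study used *Axin2*, *Lef1* and *Nkd2* as dermal markers on the same samples, which makes their direction no independent evidence. A cluster against the rest is a description and has no test. At E14.5, with 1133 dermal fibroblast-like cells, 7 of the 8 genes passed 2-fold, 6 higher and *Tcf7l2* lower, where 10.4% of 10272 genes did (4.94% higher and 5.45% lower).

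Of the factors at E14.5, *Tcf7* stood at 25 CPM in dermal fibroblast-like and 1.13 CPM in other cells, 22-fold higher (18.1 to 27.0), and *Lef1* at 51.4 and 5.47 CPM, 9.40-fold (8.50 to 10.4). *Tcf7l2* stood at 71.9 CPM against 237 CPM, 3.30-fold lower, and *Tcf7l1* at 44.3 and 49.3 CPM was close to even. Of the targets, *Sp5* stood at 93.6 against 0.464 CPM, 202-fold (153 to 271), so that nearly all of its signal in the library came from these cells. *Nkd1* stood at 143 against 21.4 CPM (6.67-fold), *Axin2* at 85.0 against 19.9 CPM (4.27-fold) and *Nkd2* at 43.3 against 12.9 CPM (3.37-fold). In thinned cells of the E14.5 dermal cluster the share with a UMI was 19.96% for *Sp5* (49.3% unthinned, median 16438 UMIs per cell) and 12.5% for *Lef1* (42.8% unthinned). It was 0.314% and 0.863% in the cluster of the same library named tenocyte-like (0.549% and 3.14% unthinned, median 14363 UMIs). That cluster was led by *Six2*, *Matn4*, *Mia* and *Otor*, which are not tenocyte markers of the fixed list, so its name is not certain.

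At E16.5 the directions were the same. In the proximal segment (961 dermal fibroblast-like cells), 7 of the 8 genes passed, where 15.6% of 9967 genes did (4.44% higher and 11.1% lower). *Sp5* was 48.5 against 3.29 CPM (14.7-fold), *Tcf7* 29.2 against 2.80 (10.4-fold), *Lef1* 39.4 against 6.11 (6.46-fold) and *Axin2* 45.5 against 9.56 CPM (4.76-fold). *Nkd1* was 4.16-fold and *Nkd2* 3.18-fold higher, and *Tcf7l2*, at 81.3 against 181 CPM, 2.23-fold lower. In the distal segment (232 such cells) 6 passed, all higher, where 15.1% of 10190 genes did (3.84% higher). By the same measure, with 11.2% of all genes lower, *Sp5* was 57.4 against 8.55 CPM (6.72-fold), *Tcf7* 53.5 against 8.90 (6.01-fold), *Lef1* 50.6 against 14 (3.61-fold), *Nkd1* 159 against 55.5 (2.87-fold), *Axin2* 71.1 against 30.6 (2.32-fold) and *Nkd2* 38.2 against 18.1 CPM (2.12-fold). *Tcf7l2* was 74.3 against 147 CPM, 1.98-fold lower and just short of the limit. The size of the E16.5 ratios depended on 2 unnamed clusters among the other cells. One, described below, carried all 7 dermal markers. The other was led by histone genes and *Nrgn*, with all 8 mitotic markers raised (346 proximal and 293 distal cells). *Nrgn* was also among the leading genes of the dermal fibroblast-like cluster. With the stages clustered together, the proximal cluster highest for *Sp5* (62.3 CPM) was led by *Cldn10*, the dermal marker *Col7a1* and *Hist1h1b*. Whether the histone-led cells were dividing dermal cells was not tested. The histone-led cluster held *Sp5* at 58.0 CPM in proximal cells, above the dermal fibroblast-like cells, and 35.3% of the proximal *Sp5* UMIs. With both left out of the other cells, an alternative chosen after seeing the data, *Sp5* was 106-fold higher in dermal fibroblast-like cells of the proximal and 22.8-fold in those of the distal segment, *Tcf7* 30.3-fold and 19.4-fold, *Lef1* 10.95-fold and 7.47-fold and *Axin2* 6.67-fold and 3.48-fold. *Tcf7l2* was then 2.10-fold lower distally. The histone-led cluster was left out for its *Sp5* level, and both clusters held high levels of several of the 8 genes. Larger ratios were therefore built into this choice, and no order of the stages was read from the ratios. Other transcripts moved with this contrast too. At E14.5 the apical ridge markers summed to 2.64 CPM in dermal fibroblast-like cells (2 of 5 at 0) against 13.04 CPM in the others (1 at 0), epithelial markers to 9.50 against 26.4 (0 of 7 at 0), glial markers to 7.30 (3 of 7 at 0) against 20.9, myogenic markers to 14.99 (3 of 8 at 0) against 7.49 and mitotic markers to 912 against 715 CPM. In the proximal segment globins summed to 1.30 CPM in dermal fibroblast-like cells (3 of 8 at 0) against 119 CPM in the others, mitotic markers to 160 against 859, muscle fibre markers to 13.8 against 76.7 and glial markers to 4.204 against 51.4 CPM. In the distal segment the same sums were 1.32 against 77.4, 357 against 719, 3.16 against 14.02 and 2.37 against 17.4 CPM. In both segments the mitotic sums of the others include the histone-led cluster. Unlike at E14.5, myogenic markers were lower in dermal fibroblast-like cells, at 12.7 against 40.5 CPM proximally and 5.79 against 15.9 CPM distally. Epithelial markers were higher in them, at 49.2 against 42.8 CPM and 38.4 against 23.5 CPM. Their part was not tested.

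**Figure D3:**
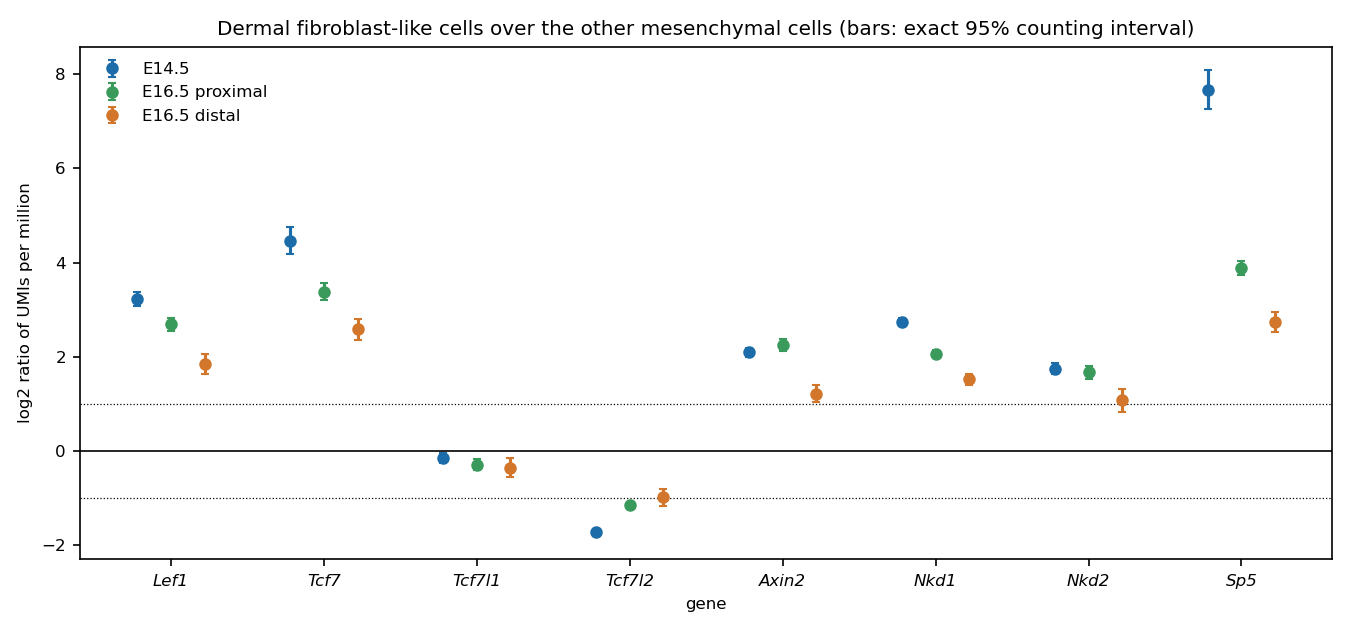
log2 ratio of CPM in dermal fibroblast-like cells over the other mesenchymal cells at E14.5 and in both E16.5 segments; bars are exact 95% counting intervals and dotted lines mark 2-fold. *Sp5* has the largest ratios (202, 14.7 and 6.72), *Tcf7l2* lies below 0 in all 3 libraries, and *Tcf7l1* lies near 0.

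Among the other pathway genes, 42 of 47 reached 5 CPM in each of the 3 libraries, of which 7 were higher and 3 lower in dermal fibroblast-like cells at E14.5, 6 and 6 in the E16.5 proximal and 5 and 5 in the E16.5 distal library. Over all genes 4.94% were higher and 5.45% lower at E14.5, 4.44% and 11.1% in the proximal and 3.84% and 11.2% in the distal library. The receptor gene *Tnfrsf19* was among those with the largest increases in all 3, 17.6-fold at E14.5, 9.35-fold and 4.70-fold. *Notum*, which encodes a secreted Wnt deacylase (11.8 against 0.563 CPM, 20.9-fold), and *Fzd10* (17.7-fold) led at E14.5, *Fzd10* (8.02-fold) and the inhibitor *Apcdd1* (7.58-fold) followed at E16.5 proximal, and *Apcdd1* (4.996-fold) and *Dkk1* (4.32-fold) were the leading pair with it at E16.5 distal. *Fzd9* was the most reduced in each, at 0.343 against 12.6 CPM, 0.742 against 25.4 CPM and 0.790 against 11.7 CPM (3 UMIs, 14.8-fold, 5.04 to 71.7). *Fzd4* was lower in all 3 as well, by 3.49-fold, 4.47-fold and 11.6-fold. *Fzd8* was 7.55-fold lower at E14.5 and 4.21-fold lower at E16.5 proximal, and *Lgr4*, a receptor for R-spondins, 4.99-fold lower at E16.5 distal.

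Before E14.5 no cluster was named dermal, but one cluster stood out for the same genes. At E13.5 an unnamed cluster of 597 cells, led by *Gatm*, *Prox1* and *Alx1*, held *Axin2* at 57.3 CPM, *Lef1* at 32.2, *Tcf7* at 19.8, *Nkd1* at 89.7, *Nkd2* at 53.5 and *Sp5* at 18.4 CPM, each the highest of the 7 clusters of that stage. The perichondrial-like cluster of E13.5 held *Axin2* at 7.62 CPM, *Lef1* at 3.37 CPM and no *Sp5* UMI in 1484 cells. At E12.5, 50 cells of the same cluster held *Axin2* at 66.5 CPM and *Lef1* at 61.5 CPM, and again no *Sp5* UMI. *Sp5* was thus detected later than these genes, but so few cells could miss a low level of it.

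At E16.5 the highest levels of several of the genes were in an unnamed cluster with 663 distal and 107 proximal cells. All 7 dermal fibroblast markers were raised in it, and its leading genes included *Sox2*, *Foxd1* and *Sox18*, which mark the dermal condensate of hair follicles. At the finer resolution these 3 genes led a cluster with 88 of its distal and 91 of its proximal cells, whereas 489 of the distal and 7 of the proximal cells fell into one led by *9330159F19Rik*, *Kcna4* and *Cadps*. The distal and proximal levels thus come largely from different cells, and no difference between the segments is read from them. *Lef1* stood there at 82.6 CPM in distal and 130 CPM in proximal cells, *Axin2* at 115 and 93.2 CPM, *Nkd1* at 281 and 238 CPM and *Nkd2* at 86.1 and 85.3 CPM. *Sp5* was 60.6 CPM in distal and 24.4 CPM in proximal cells. A largely distal cluster led by a chemokine pair, *Cxcl5* and *Ccl7* (928 distal cells), held *Axin2* at 59.3 CPM with *Lef1* at 15.2 CPM, near the 14.9 CPM of the whole library. Both genes lay above their medians over the distal clusters, which were 13.2 CPM for *Axin2* and 1.74 CPM for *Lef1*.

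The genes did not always go together. The proximal chondrocyte-like cluster (1051 cells) held *Lef1* at 25.6 CPM, above the 8.82 CPM of the library, with *Axin2* at 6.59, *Tcf7* at 1.90 and *Sp5* at 1.35 CPM. A distal unnamed cluster led by *Sema3e*, *Cytl1* and *Npnt* (513 cells), with 7 of 8 chondrocyte markers raised, held *Lef1* at 47.8 CPM with *Axin2* at 17.4, *Tcf7* at 1.98 and *Sp5* at 0.932 CPM. The medians over clusters were 1.87 CPM for *Lef1* and 1.07 CPM for *Tcf7* in the proximal library and 1.74 and 1.23 CPM in the distal one, so both genes were above their medians in these clusters, *Lef1* by far the more. *Tcf7l2* was highest in an unnamed cluster led by muscle fibre transcripts such as *Acta1* and *Tnnc2*, at 289 CPM in proximal cells, where *Lef1* stood at 0.303 CPM and *Axin2* at 3.76 CPM, and at 308 CPM in distal cells. The part of free muscle RNA in that cluster was not tested.

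**Figure D4:**
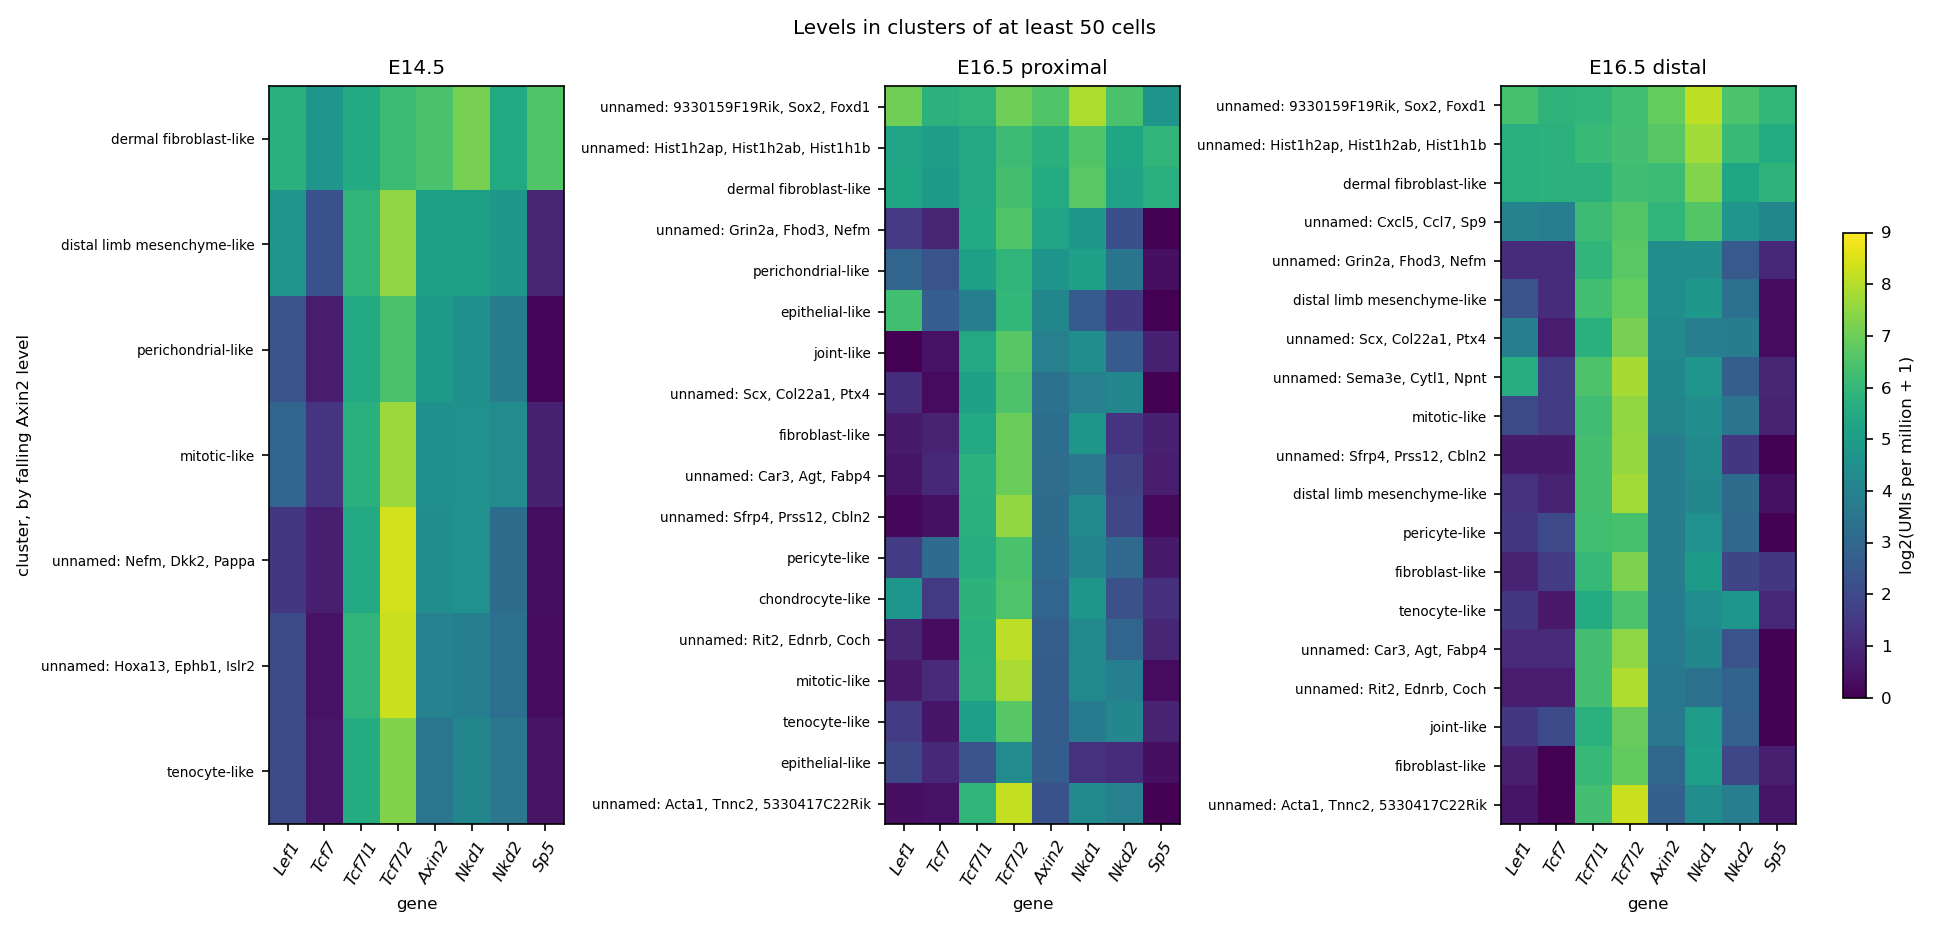
log2(CPM + 1) of the 8 genes in each cluster of at least 50 cells at E14.5 and in the E16.5 segments, ordered by falling *Axin2*; rows give the cluster name or its leading genes. The dermal fibroblast-like rows and the unnamed row led by *Sox2* and *Foxd1* sit near the top with high *Lef1*, *Nkd1* and *Sp5*, whereas *Tcf7l2* reaches 289 and 308 CPM in the row led by *Acta1*, where *Axin2* is lowest.

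Over 55 library-by-cluster sums of the sorted libraries, which share libraries and depth, *Tcf7* went with *Sp5* (Pearson r of log2(CPM + 1) 0.82), *Nkd1* (0.81), *Axin2* (0.80) and *Lef1* (0.77). Epithelial-like clusters of the E16.5 proximal library, which the comparisons left out, were among these sums, so the correlations do not cover mesenchyme alone. *Tcf7l2* went weakly against *Sp5* (-0.40) and *Axin2* (-0.30) and with *Tcf7l1* (0.44). Among 8448 genes the one most like *Axin2* was *Rspo1* (0.78), a secreted enhancer of Wnt signals, followed by *Tmem132c*, *Cachd1*, *Pth1r* and *Crabp1* (0.77 to 0.75). *Rspo1* is also a dermal fibroblast marker of the study, and *Crabp1* was among the markers that named the dermal fibroblast-like clusters. *Lef1* was most like *Bcl11b* (0.83), a zinc-finger factor, and then *Eif2s2*, *Upf3b*, *Twistnb* and *Prdx6* (0.79 to 0.75). For *Tcf7l2* the nearest were *Mov10*, *Pcbp4*, *Cdc42se2*, *Polr1c* and *Rspry1* (0.89 to 0.87). These are descriptions over sums that are not independent.

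In single cells thinned to 3000 UMIs, *Axin2* was detected more often where *Lef1* was, beyond counting error in 7 of the 8 libraries. At E14.5 17.6% of 256 cells with a *Lef1* UMI held an *Axin2* UMI (95% exact binomial interval 13.1 to 22.8), against 7.57% of 8055 cells without. The shares were 13.1% against 3.25% at E16.5 proximal and 25.4% against 8.30% at E16.5 distal. Earlier in the sorted lineage they were 6.35% (3.32 to 10.8) against 2.32% at E12.5 and 10.2% (5.82 to 16.3) against 4.15% at E13.5. At E11.5 the sorted cells gave 4.17% (2.10 to 7.33) against 2.41%, which the interval includes, whereas the whole limbs gave 14.4% (12.4 to 16.5) against 10.1% and 12.03% (10.2 to 14) against 9.27%. *Tcf7l2* went the other way, beyond counting error in 7 of the 8 libraries. The share was lowest at E14.5, at 18.0% of cells with *Lef1* against 41.6% without, and at E16.5 proximal, at 23.7% (18.8 to 29.2) against 35.7%. It was 72.0%, 55.6% and 41.5% at E11.5, E12.5 and E13.5 against 78.7%, 65.5% and 54.7%, and 34.1% and 32.9% in the whole limbs against 38.9% and 44.4%. At E16.5 distal the interval of the 29.5% (24.7 to 34.6) included the 32.4% of the other cells. Cells of 1 library share their source, so these shares compare cells and not conditions.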

How the data were processed

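Forelimb cells were profiled in 8 single-cell libraries, grouped from the labels as 6 sorted libraries (1 per group) and 2 whole limb replicates at E11.5. The authors deposited raw UMI counts per gene and barcode, aligned by them to a modified mm10 reference with Cell Ranger, version 3.0.2 in the headers of 5 libraries and 6.0.1 in that of the E16.5 distal library. The headers of both whole limb libraries give no version. The study's reporting summary names a single other version for its single-cell data, without saying which libraries it covers. No deposited per-sample column was left unused.

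Cells with at least 3000 UMIs, the limit of the study, and no more than 10% of UMIs from mitochondrial genes, which was set for the present work, were kept. Kept libraries held 31500092 to 234893903 UMIs, and intervals (95%, exact Poisson or Clopper-Pearson) cover counting error only. Cells were clustered (scanpy 1.11.5, Leiden, resolution 1, 2000 variable genes, 50 components, 25 neighbours) with 86 genes left out, among them the 8 genes described and the other pathway genes, and were named from fixed markers, where at least 3 had to be raised by a log2 fold of 1. The Scrublet automatic threshold marked too few cells, so the top scores at 0.8% per 1000 cells were treated as doublets and left out only as an alternative. The E11.5 test was the edgeR 4.0.16 quasi-likelihood test (R 4.3.3, TMM, Benjamini-Hochberg at 0.05) on counts summed per library over cells outside other lineages. DESeq2 1.42.0 was an alternative. The scripts were tested on simulated data. Other comparisons had 1 library a group and no test: a gene was counted at 5 CPM or more in the higher group and a ratio of at least 2, with a floor of 3 UMIs for a count of 0. Promoter windows are RefSeq entries on GRCm38.p6.

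Named were the 8 genes and, of 47 other pathway genes, up to 3 per direction with the largest change. For likeness, the 5 genes with the highest Pearson r were named. The genes and lists were chosen with earlier results of these data known. An equal-depth check thinned cells to 3000 UMIs. Using distal limb mesenchyme-like whole limb cells alone, and leaving out clusters led by dermal markers or, with them, by histone genes, were alternatives added after seeing the data. The others were RLE scaling, no low-count filter, all cells, thinning, TMM factors, a minimum of 1 CPM, Leiden resolution 2, clustering a library on its own, cells with 3 dermal markers, and leaving out either whole limb library. Whole 1 and whole 2 differed by more than sampling noise (chi-square per degree of freedom 16.4 over 14590 genes) and were kept as 2 samples.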

Additional observations from a re-analysis of the deposited data

Results flagged for a closer look

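Both flagged results are signals in cells that the comparisons left out, above the level in the cells used. *Lef1* stood at 76.6 CPM (95% exact Poisson interval 70.7 to 82.9) in an epithelial-like cluster of 324 cells led by *Krt14* and *Krt5* in the E16.5 proximal library, against 8.82 CPM in the cells outside epithelial-like clusters, with *Axin2* there at 16.5 CPM and no *Sp5* UMI. The methods of the study treat such cells as contaminating. Whether they belonged to the *Hic1* lineage was not tested.

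*Sp5* stood at 21.6 CPM (17.2 to 26.7) in 302 myogenic-like cells of whole 1, led by *Lbx1*, *Myf5*, *Pax3* and *Myod1*, and at 13.8 CPM (10.2 to 18.3) in 283 such cells of whole 2, against 0.449 and 0.0636 CPM in the mesenchymal cells of the same libraries. With all filtered cells summed, *Sp5* was therefore lower in sorted cells by a log2 fold change of -4.12 (edgeR adjusted p = 1.5e-11).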

How the results depend on the processing

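Leaving aside the omission of a whole limb library, the number of the 8 genes counted was within 1.5 times the main one under each alternative, except for distal against proximal. There 1 gene passed in place of 2 after thinning, with TMM factors and without doublets (*Axin2* each time), and 1 as a mean over cell classes (*Sp5*), but only with 0 distal UMIs in 2 classes set to the floor of 3, and 0 without the classes at or under that floor in both segments. With fibroblast-like and joint-like cells left out of that mean too, 1 passed (*Axin2*). Both were alternatives chosen after seeing the data, and 2 or 3 passed under the rest. These counts show the dependence on the setting and were not set against the share of all genes under each. At E11.5 the count was 6 or 7 of 8 in each tested alternative. With 1 whole limb library left out there was no test, so a count past 2-fold was not set against the count of calls. Among single genes 1 value reversed: *Nkd2* against proximal-like whole limb cells, at 0.065 on the log2 scale (edgeR adjusted p = 0.699). Another, *Sp5* without a filter on low counts, fell short of the threshold, and *Tcf7l1* passed it against proximal-like cells. Of the other values of single genes 204 stayed within the counting interval or, at E11.5, on their side of the threshold, and 173 moved outside that interval. The sign turned for genes short of 2-fold from E11.5 to E16.5 proximal: *Tcf7* (main log2 ratio -0.17) was at 0.24 with TMM factors and 0.36 after thinning, *Nkd1* (-0.31) at 0.10 and 0.03, and *Axin2* (0.04) at -0.04 with epithelial-like clusters kept and -0.03 over all barcodes. Without the low-count filter the called genes other than *Sp5* had adjusted p between 0.00724 and 0.0357. Over all genes the E11.5 test called 8029 of 15073, DESeq2 4842 of 13901 (1888 higher and 2954 lower, against 4041 and 3988), and edgeR without the low-count filter 4757 of 20152.

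No paired analysis was possible because each sorted group was 1 library. With 1 library per stage and segment no spread between embryos is known. *Sp5* had 3 UMIs in each of the first 2 stages, so its ratios to them are wide. The reading of E11.5 to E13.5 against later stages is also one of kit v2 against v3, and that of E16.5 proximal against earlier stages also one of limb part. That of E11.5 and E12.5 against later stages is also one of digestion enzymes.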
